A study of Mus musculus with 4 samples.

Results

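Interferon-induced GTPases were examined in RNA sequencing of mouse pancreatic islets, the hormone-secreting cell clusters of the pancreas. The 9 genes, Mx1, Mx2, Gbp2, Gbp3, Gbp7, Igtp, Iigp1, Irgm1 and Irgm2, were found by symbol among the 52636 Ensembl genes of the deposited count table. They were chosen by their counts in the knockout and control libraries, with the difference between the groups already in view. Their fold changes are therefore given as a description, and no test of them is offered as support. The tested animals were Tspan7 knockouts (Tspan7 y/-), which lack a tetraspanin membrane protein encoded on the X chromosome. The comparison animals were wild type for Tspan7 and are called controls. Each group had 2 libraries of whole islets, with 9377220 and 7855665 counts in knockout replicates 1 and 2 and 8704271 and 9140275 counts in control replicates 1 and 2. The labels give no age, inbred strain, litter or batch, and do not say whether each library came from 1 animal, so the spread between libraries may be technical. The study asked how the loss of Tspan7 affects insulin release and whole-body metabolism.

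Interferons are secreted antiviral proteins that act through cell-surface receptors, Janus kinases and Stat transcription factors. Type I interferons bring a complex that holds Stat2 and Irf9 to the interferon-stimulated response element (ISRE), which Irf1 also binds, and interferon gamma acts through the gamma-activated sequence (GAS). The GTPases induced in this way fall into families. Mx proteins are dynamin-like GTPases that block virus replication. Guanylate-binding proteins and immunity-related GTPases coat the vacuoles in which intracellular bacteria and parasites live. In most inbred laboratory mice the Mx1 and Mx2 alleles encode no functional protein, and GENCODE lists Mx2 as a polymorphic pseudogene.

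Promoter sequence was taken for 6 of the 9 genes, from RefSeq's table for the mouse build GRCm38.p6. It was used for sequence only, because the counts were made on GRCm39. The 250 bases before each annotated start were searched on both strands for GAAANNGAAA (ISRE) and TTCNNNGAA (GAS). The stretches shown are those that hold the ISRE matches of the 6 genes, since this element is what these 6 share outside the readout that chose them. They are written 5′ to 3′ on the strand of the gene, with ISRE and GAS matches in capitals.
Gbp2, chr3:142620594-142620623 (+): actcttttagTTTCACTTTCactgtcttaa
Gbp3, chr3:142559992-142560021 (+): gacacagTTTCAGTTTCTATTTCccagatc
Gbp7, chr3:142530216-142530335 (+): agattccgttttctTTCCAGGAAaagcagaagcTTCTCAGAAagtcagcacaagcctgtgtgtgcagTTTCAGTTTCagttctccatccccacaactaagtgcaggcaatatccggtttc
Igtp, chr11:58199436-58199555 (+): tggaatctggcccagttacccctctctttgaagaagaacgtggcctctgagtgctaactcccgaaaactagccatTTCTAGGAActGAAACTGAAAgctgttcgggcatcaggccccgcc
Irgm1, chr11:48871428-48871457 (-): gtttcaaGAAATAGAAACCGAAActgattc
Irgm2, chr11:58214857-58214976 (+): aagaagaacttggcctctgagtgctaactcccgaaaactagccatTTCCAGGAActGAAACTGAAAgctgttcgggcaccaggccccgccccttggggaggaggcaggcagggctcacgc

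All 6 genes had an ISRE match, lying between 15 and 64 bases before a RefSeq start. GENCODE M21 starts Irgm1 and Gbp2 farther upstream, and by it all 30 bases shown for Irgm1 and 22 of the 30 for Gbp2 lie within exons of the gene. Across all 32851 promoter windows of the same length, 2.98% held an ISRE match. The genes were listed as interferon-induced, so a higher share among them is no independent support. Gbp3 and Irgm1 each carried 2 matches that overlap each other, and Gbp3 has another annotated start whose window held none. GAS matches were found before Gbp7, Igtp and Irgm2, with 2 of them before Gbp7, against 7.02% of all windows. In Igtp and Irgm2 the GAS match stands next to the ISRE match within a shared block. Compared without gaps, their sequences were identical at 87 of 90 aligned bases around that block, and at 134 of 220 bases at the same alignment. Farther upstream the windows also share long runs of letters, shifted against that alignment. A comparison without gaps does not count these, so the lower share does not mean that the likeness ends at the block. A match of letters describes the sequence and does not show that a factor binds there.

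**Figure D1:**
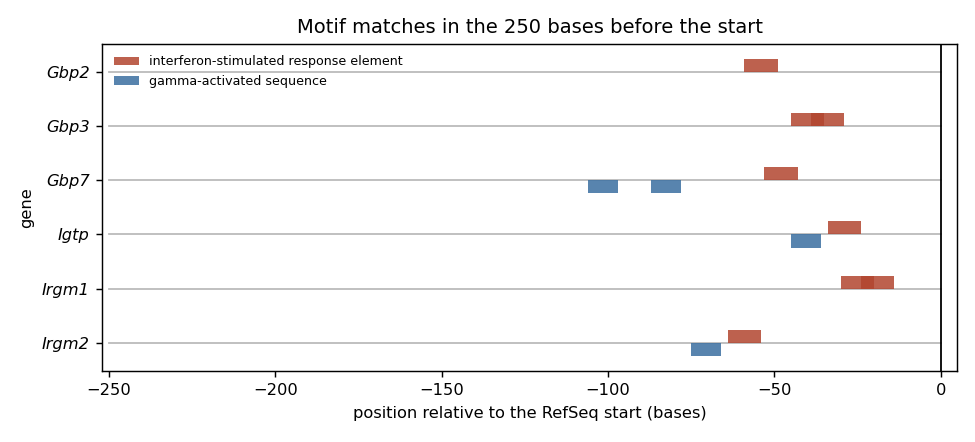
Positions of motif matches in the 250 bases before the RefSeq start of 6 genes; the horizontal axis is distance from the start in bases, red blocks are ISRE matches and blue blocks GAS matches on either strand. Every gene has a red block within 64 bases of the start, and Gbp7, Igtp and Irgm2 also have blue ones.

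Taken per kilobase of annotated exon, in scaled CPM (counts relative to the scaled library size) per kilobase, Gbp7 and Igtp were the most abundant of the 9 genes and the Mx genes the least abundant in control islets. In knockout islets Gbp7 stood at 5.88 ± 2.04 and in control islets at 7.66 ± 0.285 (SD, n = 2 each, as for every mean below). Igtp stood at 4.93 ± 1.38 in knockout and 7.22 ± 0.626 in control islets on the same scale. Irgm1, at 4.37 ± 1.21 in knockout and 5.63 ± 0.304 in control islets, came next. The remaining control levels were 5.17 for Gbp2, 3.80 for Irgm2, 3.01 for Gbp3, 2.18 for Iigp1, 1.24 for Mx1 and 1.05 for Mx2. In this control order the ranges of neighbouring genes overlapped throughout, except between Igtp and Irgm1. In knockout islets Mx1, at 0.289 ± 0.137, was the lowest of the 9, below the range of Iigp1, the next gene up at 1.25 ± 0.055.

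Mx1 showed the largest difference between the groups, and the guanylate-binding genes Gbp2 and Gbp3 followed. All 9 genes passed the filter on low counts. Of these, 8 had a negative log2 fold change, taken as knockout over control, and 1, Mx2, a positive one. The median was -0.56, beside 0.003 over the 16924 genes tested, of which 49.4% were negative. In 7 of the 9 the higher knockout library was still under the lower control library, as it was in 15.0% of all genes tested. The opposite order held in 0 of the 9 and in 15.3% of all genes. By edgeR's quasi-likelihood test at an adjusted p under 0.05, 0 of the 9 were called, and 0.00591% of all genes were (1 gene, the targeted Tspan7). At an unadjusted p under 0.05 there were 4 of the 9, all lower, beside 1.96% of all genes lower and 1.55% higher. DESeq2 and limma-voom called 0 of them. The likelihood ratio test called Mx1, among 14 genes called lower and 2 called higher of all 16924 tested. With no filter on low counts Mx1 and Gbp2 were among 47 genes called lower, with 15 called higher. Because this contrast picked the genes, nothing is read from these counts.

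**Figure D2:**
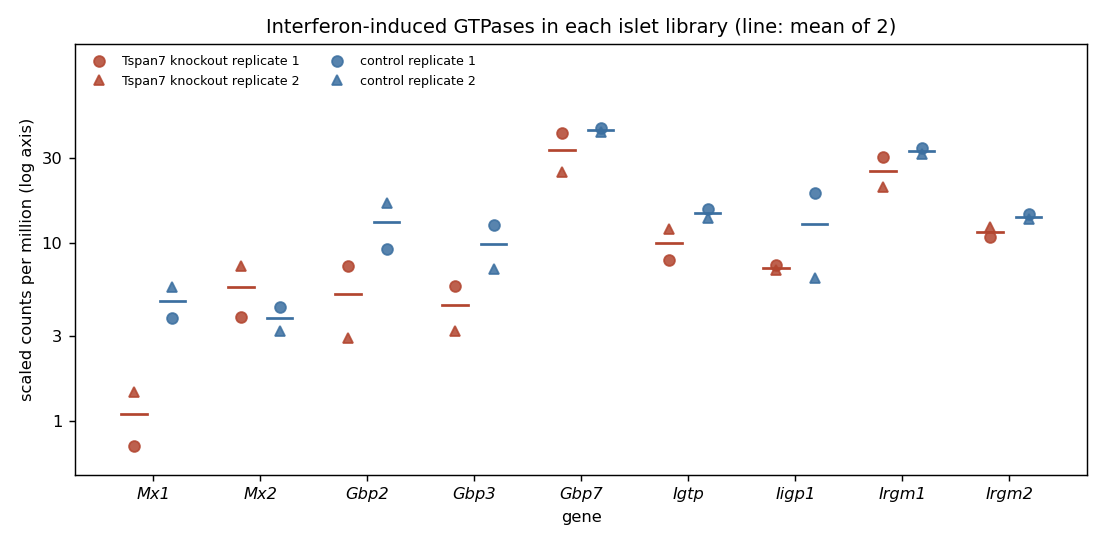
Scaled CPM of the 9 genes (log axis) in each library, with knockout in red on the left of each pair and control in blue on the right; circles are replicate 1, triangles replicate 2 and lines the mean of the 2. The groups do not overlap in 7 genes and overlap in Mx2 and Iigp1.

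Mx1 (ENSMUSG00000000386, chromosome 16) encodes a nuclear protein that in mice with an intact gene restricts influenza virus. It had 7 and 11 counts in knockout libraries, against 32 and 53 in control libraries. The groups were apart, with the higher knockout library at 1.46 CPM and the lower control library at 3.79 CPM. The means were 1.09 ± 0.517 CPM in knockout and 4.71 ± 1.31 CPM in control islets, and the log2 fold change was -2.14 ± 0.44 (SE), with a 95% confidence interval (CI) of -3.15 to -1.13. The knockout level rests on few counts.

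Mx2 (ENSMUSG00000023341), its neighbour on chromosome 16, encodes a cytoplasmic relative. It had 37 and 56 counts in knockout libraries, against 37 and 30 in control libraries. After scaling, knockout replicate 1 at 3.84 CPM lay between the control values of 4.38 and 3.19 CPM, and knockout replicate 2 stood above them at 7.42 CPM. The log2 fold change was 0.56 ± 0.38 (SE), with a 95% CI of -0.32 to 1.43.

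Gbp2 (ENSMUSG00000028270, chromosome 3) encodes a guanylate-binding protein that is recruited to parasite vacuoles. It had 71 and 22 counts in knockout libraries, against 78 and 158 in control libraries. Scaled, these were 7.37 and 2.92 CPM in knockout and 9.23 and 16.8 CPM in control islets, so replicates of either group differed by more than the nearest libraries of different groups. The log2 fold change was -1.31 ± 0.47 (SE).

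Gbp3 (ENSMUSG00000028268), in the same cluster of chromosome 3, encodes another guanylate-binding protein. It had 55 and 24 counts in knockout libraries, against 106 and 67 in control libraries, or 5.71 and 3.18 CPM against 12.5 and 7.12 CPM. The groups did not overlap, and the log2 fold change was -1.11 ± 0.38 (SE).

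Gbp7 (ENSMUSG00000040253), the third gene of that cluster examined, had the most counts of the 9. It had 396 and 188 counts in knockout libraries, against 373 and 394 in control libraries. Knockout replicate 1, at 41.1 CPM, lay just under the control values of 44.1 and 41.9 CPM, and knockout replicate 2 was far below at 24.9 CPM. The log2 fold change was -0.37 ± 0.23 (SE). Gbp7 shares 637 exon bases (11.4% of its length) with Gm43802, an annotated processed pseudogene on the same strand that had 72 and 25 counts in knockout and 70 and 63 in control libraries.

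The immunity-related GTPases divide by role into effectors, such as Iigp1 (also called Irga6), which attack the vacuole membrane, and the regulators Irgm1, Irgm2 and Igtp (also called Irgm3), which hold effectors inactive on the cell's own membranes. All 3 regulators were lower in both knockout libraries than in either control library, an order found in 15.0% of all genes tested. Their differences were smaller than those of Mx1, Gbp2 and Gbp3. The effector Iigp1 overlapped between the groups, though its log2 fold change of -0.80 was larger in size than that of any regulator. With a single effector, and genes picked by this contrast, no split by role is read from these values.

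Igtp (ENSMUSG00000078853, chromosome 11) had 77 and 90 counts in knockout libraries, against 131 and 129 in control libraries. The means were 9.96 ± 2.78 CPM in knockout and 14.6 ± 1.27 CPM in control islets, a log2 fold change of -0.56 ± 0.24 (SE). Irgm2 (ENSMUSG00000069874), the gene beside it, had 103 and 92 counts in knockout libraries, against 122 and 128 in control libraries. Its means were 11.4 ± 1.06 CPM in knockout and 14.0 ± 0.588 CPM in control islets, a log2 fold change of -0.29 ± 0.20 (SE). The annotated exons of these genes share 162 bases on the same strand, so reads there cannot be given to one gene. With their counts added into 1 feature the log2 fold change was -0.42.

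Irgm1 (ENSMUSG00000046879), elsewhere on chromosome 11, is known for defence against mycobacteria. It had 292 and 154 counts in knockout libraries, against 287 and 296 in control libraries. As in Gbp7, knockout replicate 1 (30.3 CPM) lay just under the control values (34.0 and 31.5 CPM) and knockout replicate 2 well below (20.4 CPM). The log2 fold change was -0.36 ± 0.20 (SE).

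Iigp1 (ENSMUSG00000054072, chromosome 18) had 72 and 53 counts in knockout libraries, against 161 and 60 in control libraries. Knockout values of 7.48 and 7.03 CPM lay close together, between control values of 19.0 and 6.38 CPM. The log2 fold change of -0.80 ± 0.51 (SE) therefore rests on control replicate 1, and without that library it was 0.19.

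Which knockout library was the lower one differed between genes. In scaled CPM, knockout replicate 2 lay below knockout replicate 1 in 9 of the 9 guanylate-binding genes tested, counting Gbp2, Gbp3, Gbp7 and 6 relatives named below, as it did in 50.3% of all genes. Irgm1 and Iigp1 had the same order, and Mx1, Mx2, Igtp and Irgm2 the opposite one. This order was noticed in the data, and genes of 1 library share its RNA, so it is given without a test.

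Leaving out each library in turn kept Mx1 between -1.68 and -2.68 on the log2 scale and Irgm2 between -0.20 and -0.39. Other genes depended more on single libraries. Without knockout replicate 2, the log2 fold change was -0.06 for Gbp7, -0.11 for Irgm1, 0.03 for Mx2, -0.82 for Gbp2 and -0.87 for Igtp. Without knockout replicate 1 it was -0.78 for Gbp7, -0.68 for Irgm1, -0.29 for Igtp, -2.15 for Gbp2 and 0.98 for Mx2. Without control replicate 1 it was -0.66 for Gbp3, and without control replicate 2 it was -0.81 for Gbp2, -1.39 for Iigp1 and 0.34 for Mx2. The median over the 9 genes was -0.34 without control replicate 1.

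**Figure D3:**
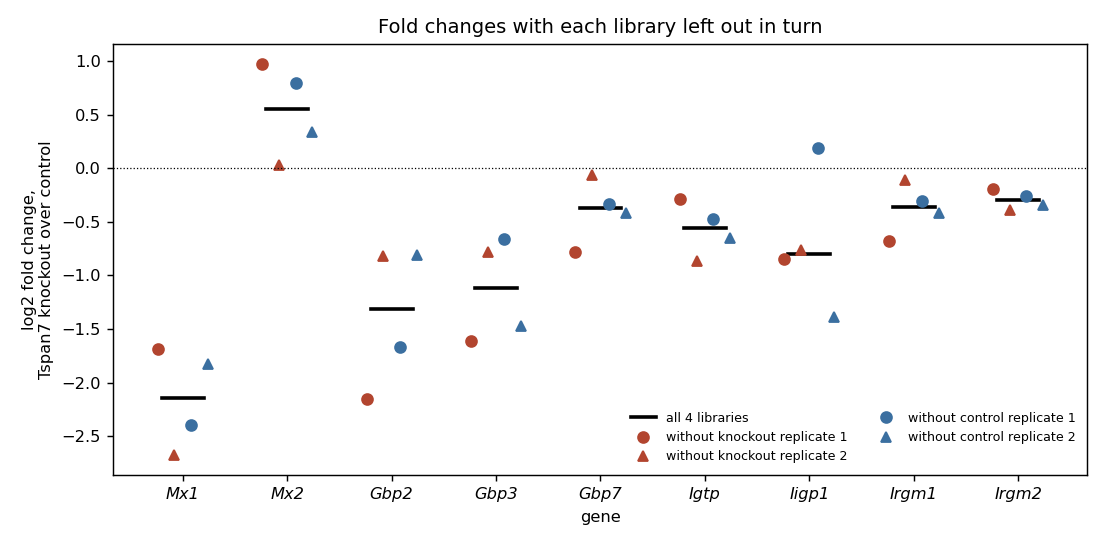
Log2 fold change, knockout over control, of the 9 genes with all 4 libraries (black line) and with 1 library left out (red, a knockout library; blue, a control library; circles, replicate 1; triangles, replicate 2). Mx1 stays between -2.68 and -1.68, while Iigp1 stands at 0.19 without control replicate 1 and Gbp7 at -0.06 without knockout replicate 2.

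The other guanylate-binding genes that were tested had negative fold changes of varied size. Of 8 listed, 6 were tested, and all 6 had a negative log2 fold change, with a median of -0.92. None was called by edgeR, DESeq2 or limma-voom. An unadjusted p under 0.05 was found in 3, beside 1.96% of all genes lower at that p, and in 4 both knockout libraries were the lower ones, beside 15.0% of all genes. Gbp6, from the cluster on chromosome 5, had 40 and 21 counts in knockout libraries, against 64 and 116 in control libraries (log2 fold change -1.50 ± 0.34, SE). With no low-count filter it was among 47 genes called lower over all genes, with 15 called higher. Gbp8 stood at -1.12 ± 0.49, Gbp9 at -0.72 ± 0.39 and Gbp4 at -0.60 ± 0.33 on the same scale.

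Gbp5, which lies on chromosome 3 with Gbp2 and Gbp3, had 43 and 24 counts in knockout libraries, against 43 and 39 in control libraries (-0.26 ± 0.31, SE). Gbp10, which was tested on few counts, had 5 and 0 in knockout libraries, against 14 and 14 in control libraries (-2.39 ± 0.80, SE). Gbp11, under the filter, had 0 and 0 counts in knockout libraries, against 3 and 6 in control libraries. Gbp2b had no count in any library, which at these depths allows up to 0.312 to 0.398 scaled CPM (3 counts, counting error only). Members of this family resemble each other closely, and how reads with several matches were treated is not given in the sources used here, so counts may be split among them.

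The other immunity-related and very large inducible GTPases had few counts, apart from Irgq. Of 16 listed, 14 were found and 7 of these passed the filter and were tested, with 6 negative and 1 positive log2 fold change and a median of -0.35. None was called by edgeR, DESeq2 or limma-voom, and 1 had an unadjusted p under 0.05, beside 1.96% of all genes lower at that p. That was Gm12185, with 0 and 5 counts in knockout libraries, against 14 and 15 in control libraries. The effector genes Tgtp1 and Tgtp2, near-identical copies, stood at -0.43 ± 0.50 and 0.19 ± 0.43 on the log2 scale (SE). Ifi47, also named Irgd, stood at -0.44 ± 0.76, 9930111J21Rik2 at -0.35 ± 0.33 and the very large GTPase gene Gvin1 at -0.22 ± 0.60.

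Irgq, a distant relative without known interferon induction, had 799 and 467 counts in knockout libraries, against 687 and 802 in control libraries (-0.20 ± 0.17, SE). The 7 genes under the filter were Gm12250, Gm5431, 9930111J21Rik1, Gm4951, Gm4841, F830016B08Rik and Irgc1, none with more than 9 counts in a library.

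Constitutive GTPases of the dynamin superfamily, which cut or fuse membranes and are made without interferon, had fold changes near 0. Their 10 log2 fold changes ran from -0.18 to 0.18, with 6 negative, 4 positive and a median of -0.01. None was called by edgeR, DESeq2 or limma-voom, and none had an unadjusted p under 0.05. Opa1, the inner mitochondrial fusion gene, measured -0.18 ± 0.13 (SE), with both knockout libraries below both control libraries. Atl2, an atlastin that fuses endoplasmic reticulum tubules, measured 0.18 ± 0.16. The endocytic dynamin gene Dnm2 measured 0.11 ± 0.13, with both its knockout libraries above both control libraries. Each order held in 1 of the 10, beside 15.0% of all genes for the lower and 15.3% for the higher one. The mitofusin gene Mfn1 measured -0.10 ± 0.18.

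**Figure D4:**
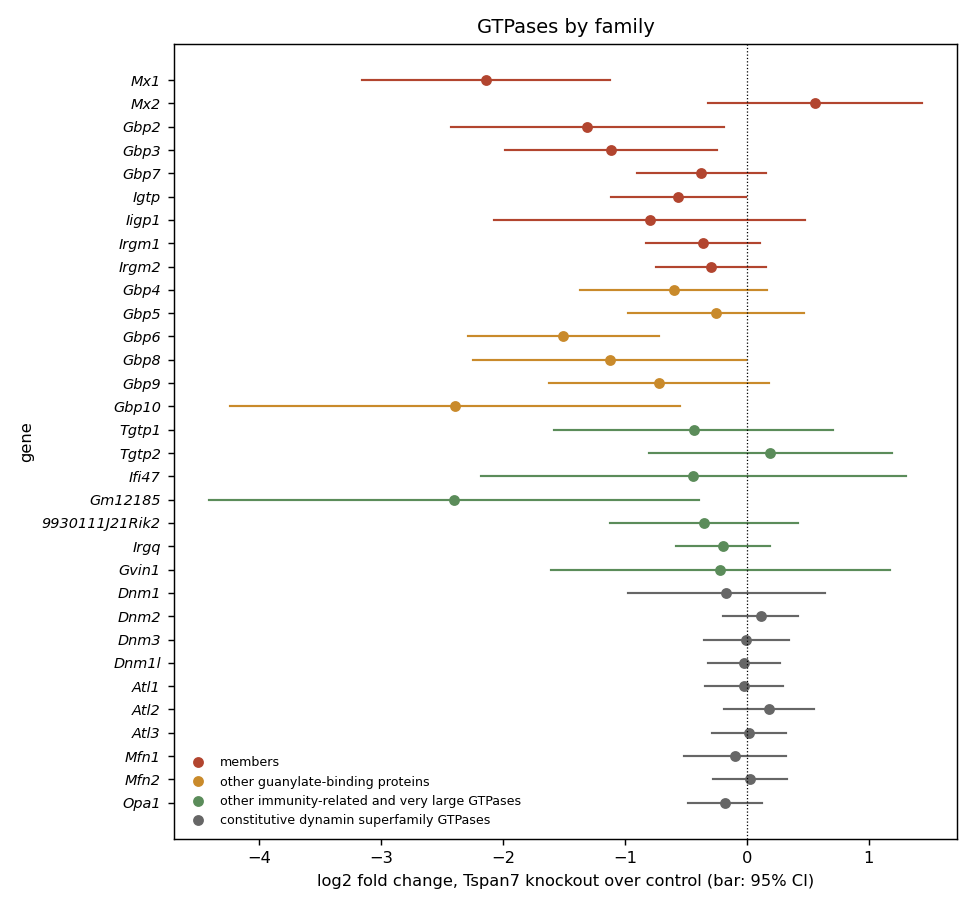
Log2 fold change, knockout over control, with 95% CI, for the 9 genes (red), other guanylate-binding genes (orange), other immunity-related and very large GTPases (green) and constitutive dynamin superfamily genes (grey) that passed the filter on low counts. Inducible genes lie mostly left of 0 with wide intervals, and the grey genes lie between -0.18 and 0.18.

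Upstream of the GTPases, the groups overlapped in each receptor and kinase gene except Ifnar2, while Irf7, Stat2, Irf3 and Irf9 were lower in both knockout libraries than in either control library. With Ifnar2, this order held in 5 of the 19 signalling genes, beside 15.0% of all genes. Of 19 signalling genes tested, 14 had a negative log2 fold change and 5 a positive one, with a median of -0.10. None was called by edgeR, DESeq2 or limma-voom, and 2, both lower, had an unadjusted p under 0.05, beside 1.96% of all genes lower at that p. Stat2 had 187 and 151 counts in knockout libraries, against 236 and 255 in control libraries (-0.48 ± 0.16, SE). Irf9, its partner, measured -0.31 ± 0.16. Irf3 measured -0.23 ± 0.23, with groups barely apart, at 11.8 CPM in the higher knockout library and 11.9 CPM in the lower control library. Irf7, itself an interferon target, had 60 and 38 counts in knockout libraries, against 136 and 125 in control libraries (-1.37 ± 0.24, SE). The likelihood ratio test called Irf7, among 14 genes called lower and 2 called higher over all genes. With no low-count filter Irf7 was among 47 genes called lower, with 15 called higher.

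Irf1, the factor that interferon gamma raises, had 54.7 and 98.2 CPM in knockout libraries, against 74.3 and 49.1 CPM in control libraries, so the groups overlapped (0.31 ± 0.33, SE). The interferon gamma receptor genes Ifngr1 and Ifngr2 measured -0.09 ± 0.17 and 0.12 ± 0.23. The type I receptor gene Ifnar2 measured -0.35 ± 0.18, and the kinase gene Jak1 -0.05 ± 0.13. Ifnar1, the other chain of that receptor, had 521 and 376 counts in knockout libraries, against 438 and 491 in control libraries, with overlapping groups. Of 13 interferon genes listed, 9 had no count in any library. All 13 together gave 1 and 3 counts in knockout libraries, against 2 and 4 in control libraries, so a difference in ligand transcripts was not detectable at this depth.

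Among the genes whose pattern over the 4 libraries was nearest to the mean of the 9 were Ctss, H2-Aa, Wdr89, Arhgap11a and Adgre1. Likeness was measured as the distance between log2 CPM profiles, each centred on its own mean, and the distances ran from 0.09 for Ctss to 0.15 for Adgre1. The single GTPases lay farther from their own mean, from 0.46 for Irgm1 to 1.61 for Mx1. The named genes were picked for their small distance among 12187 candidate genes, so being nearer than the GTPases follows from that choice. The mean profile itself carries the contrast that chose the 9. Ctss encodes a lysosomal protease of antigen-presenting cells, H2-Aa a class II chain and Adgre1 the macrophage surface protein F4/80. Ctss had 171 and 117 counts in knockout libraries, against 234 and 228 in control libraries. Adgre1 had 29 and 19 counts in knockout libraries, against 39 and 42 in control libraries.

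**Figure D5:**
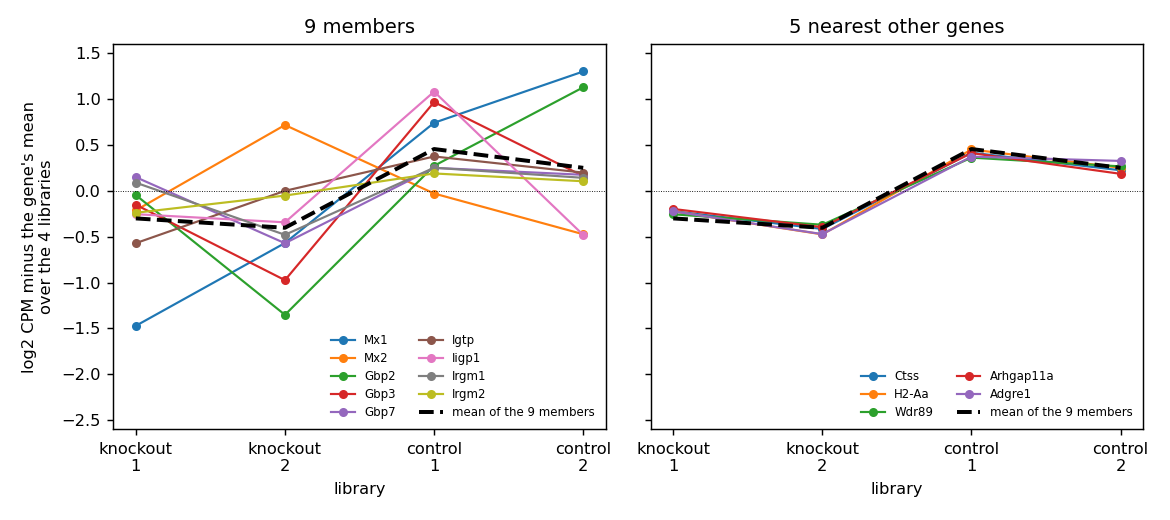
Log2 CPM minus each gene's own mean over the 4 libraries, for the 9 GTPases (left) and 5 of the nearest other genes (right); lines only join the values of a gene, and the dashed line is the mean of the 9. The mean is at -0.30 and -0.40 in knockout and 0.45 and 0.25 in control libraries, and Mx2 runs against it.

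Tested markers on the macrophage and leukocyte list, and most tested markers of endothelial and stellate cells, had fold changes in the same direction as most of the GTPases. Of 16 macrophage and leukocyte markers, 13 were tested and all 13 had a negative log2 fold change (median -0.37). None was called by edgeR, DESeq2 or limma-voom. An unadjusted p under 0.05 was found in 5, beside 1.96% of all genes lower at that p, and in 8 both knockout libraries were the lower ones, beside 15.0% of all genes. Their summed level was 89.3 and 77.0 CPM in knockout libraries, against 125 and 104 CPM in control libraries. The summed level of the 9 GTPases was 115 and 91.5 CPM in knockout libraries, against 157 and 140 CPM in control libraries. In whole islets, fewer cells of a type and less RNA per cell cannot be told apart, and the part of leukocyte content in the GTPase values was not tested.

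Lymphocyte markers were near the detection limit, with 13 genes summing to 21 and 17 counts in knockout libraries, against 26 and 31 in control libraries, and Ms4a1 and Ncr1 at 0 in all. Cd79a, the only marker of these tested, had 15 and 13 counts in knockout libraries, against 14 and 12 in control libraries. Its log2 fold change was positive (0.16 ± 0.43, SE). Neutrophil markers summed to 1 and 1 counts in knockout libraries, against 2 and 3 in control libraries, with 4 of 7 at 0 in all, S100a8 and S100a9 among them. Of 11 endothelial markers tested 9 were negative (median -0.25), and in 8 both knockout libraries were the lower ones, beside 15.0% of all genes. No endothelial marker had an unadjusted p under 0.05. Endothelial sums were 489 and 566 CPM in knockout libraries, against 573 and 582 CPM in control libraries. Of 9 stellate and fibroblast markers tested 6 were negative (median -0.36). In 4 both knockout libraries were the lower ones and in 2 the higher ones, beside 15.0% and 15.3% of all genes. An unadjusted p under 0.05 was found in 1, lower, beside 1.96% of all genes lower at that p. The whole stellate list summed to 164 and 210 CPM in knockout libraries, against 212 and 246 CPM in control libraries. None of either list was called by edgeR, DESeq2 or limma-voom.

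Islet endocrine markers were abundant in every library, at 29137 and 35375 CPM in knockout and 34307 and 29008 CPM in control libraries, which fits the labelled tissue. Acinar enzyme genes, which mark carry-over from the exocrine pancreas, varied most, at 1283 and 5939 CPM in knockout libraries, against 2854 and 67.9 CPM in control libraries. Ductal markers summed to 49.7 and 81.0 CPM in knockout libraries, against 74.2 and 206 CPM in control libraries. Much of this was Spp1, with 184 and 363 of 479 and 611 ductal counts in knockout libraries. In control libraries it had 378 and 1614 of 627 and 1940. Of 5 ductal markers tested, 2 had a negative and 3 a positive log2 fold change (median 0.11). The part of acinar and ductal RNA in the GTPase values was not tested. Tspan7 itself had 3 and 2 counts in knockout libraries, against 1924 and 1795 in control libraries.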

How the data were processed

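The authors deposited 1 table of raw counts per Ensembl gene for 4 directional RNA-seq libraries. HISAT2, featureCounts and the build GRCm39 are named in the submitters' processing notes. Not given in the sources used here are versions, annotation release, strand setting and the handling of multiply mapped reads. Symbols for 52403 of 52636 identifiers, exon lengths and gene overlaps came from GENCODE M21 (GRCm38), whose lengths may differ from those counted. Columns were matched to samples by genotype and replicate number.

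Counts were fitted with edgeR 4.0.16 in R 4.3.3: filterByExpr (minimum count 10), trimmed mean of M-values (TMM) scaling, robust quasi-likelihood F test, two-sided, no covariate, Benjamini-Hochberg adjustment over all 16924 genes tested. CPM values are TMM-scaled. SE was back-calculated from that fit, as the absolute log2 fold change over the square root of the F statistic. CI used this SE and the t distribution at the fit's degrees of freedom. Alternatives were DESeq2 1.42.0, limma-voom 3.58.1, the likelihood ratio test, 2 other scalings, no filter, a replicate block and leaving out each library. The crossed pairing and the summed Igtp and Irgm2 counts were added after seeing the data. The pipeline was tested on simulated counts.

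The members and gene lists were chosen with earlier results of these data known. All members and the other guanylate-binding and immunity-related genes are named, plus list genes of smallest p, fixed signalling genes and the 5 nearest profiles shown, at a mean log2 CPM of at least 1. A result for one gene is not reported here. Gm43802, Spp1, Cd79a, the markers at 0 and the order of the knockout libraries were singled out after their values were seen. Every pair of libraries differed beyond sampling noise, with a chi-square of 7.08 to 20.0 for each degree of freedom. Depth limits precision, and a count of 3 is taken as the floor.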

Additional observations from a re-analysis of the deposited data

How the results depend on the processing

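Of the 9 GTPases, 8 kept their direction in every alternative run. The exception was Iigp1, at 0.19 without control replicate 1 and between that and -1.39 over the libraries left out. Their median log2 fold change ran from -0.78 to -0.34 with 1 library left out, and from -0.57 to -0.55 under the other scalings, tools, blocks and filter. Mx1 and Gbp2 were called with no low-count filter (2 of the 9), and Mx1 with the likelihood ratio test (1 of the 9). Over all genes, edgeR called 0 higher and 1 lower. The counts were 15 higher and 47 lower with no filter, 2 and 14 with the likelihood ratio test, and 0 and 6 with DESeq2. Leaving out 1 library gave 0 to 33 higher and 1 to 15 lower, with the most calls without control replicate 1. The cause was not tested, and the lone library of a group is then assumed to vary like the others. The replicate numbers in the titles are not said to pair samples, and deviations of same-numbered libraries correlated at -0.30 across genes. A replicate block gave 1 higher and 5 lower, the crossed pairing 1 and 1, and neither called any of the 9. With 2 libraries a group and 7 to 11 counts of Mx1 in knockout libraries, depth limits the low genes most.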

Other observations

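Genes that work with the GTPases were also measured. Loading of guanylate-binding proteins and immunity-related GTPases onto vacuoles needs the conjugation machinery of autophagy. The 11 genes of that machinery had log2 fold changes from -0.12 to 0.28 with a median of 0.02, 4 negative and 7 positive, and 0 were called by edgeR, DESeq2 or limma-voom or had an unadjusted p under 0.05. Atg5 had 400 and 311 counts in knockout libraries, against 422 and 361 in control libraries (-0.09 ± 0.16, SE). Atg7 measured 0.28 ± 0.18 and Atg3 0.19 ± 0.14, each with both knockout libraries above both control libraries. That order held in 2 of the 11, beside 15.3% of all genes, so nothing is read from it.

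Guanylate-binding proteins also act upstream of caspase-11 (gene Casp4) and the inflammasomes. Of 8 such genes 6 were tested, with 5 negative and 1 positive log2 fold change and a median of -0.35. None was called by edgeR, DESeq2 or limma-voom, and 1 had an unadjusted p under 0.05, beside 1.96% of all genes lower at that p. That was Casp4, with 12 and 14 counts in knockout libraries, against 23 and 30 in control libraries (-0.95 ± 0.39, SE). Il18 measured -0.36 ± 0.31 and Il1b -0.34 ± 0.36. Pycard, the adaptor gene, measured 0.37 ± 0.54, with 41 and 30 counts in knockout libraries, between the 11 and 47 counts of the control libraries.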
